A study of Mus musculus with 7 samples.

Results

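The 44 genes described here encode voltage-gated calcium channels, voltage-gated sodium channels and hyperpolarization-activated cyclic nucleotide-gated (HCN) channels. They were taken by gene symbol (Cacna, Cacnb, Cacng, Scn and Hcn) from 21887 protein-coding genes of a GRCm38.p6 gene table. The 24 pore subunit genes comprise 10 calcium alpha1 genes, 10 sodium alpha genes and 4 HCN genes. The 20 auxiliary subunit genes comprise 4 calcium alpha2delta, 4 calcium beta, 8 calcium gamma and 4 sodium beta genes. The group was put together with H3K27me3 results of these data already known, so its counts and shares are given as a description, without a test.

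The study mapped H3K27me3, which Polycomb Repressive Complex 2 places on repressed genes, and H3K27ac, found at active promoters and enhancers, by ChIP-seq. All libraries came from globose basal cells, the cycling progenitors of the olfactory epithelium, of adult wild-type mice. The mice had been given methimazole, which destroys the differentiated layers of this epithelium, 7 to 10 days earlier. Cells were enriched with an antibody to c-Kit, a receptor that mast cells and melanocytes also carry, and each replicate pooled 3 mice. H3K27me3 and H3K27ac had 2 libraries each, and 3 input libraries served as background. Every animal was lesioned, so no unlesioned state can be compared.

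Pore subunits form the ion path and the voltage sensor, and auxiliary subunits set how many channels reach the membrane and how they open and close. In olfactory sensory neurons, which descend from globose basal cells, HCN channels, calcium channels and sodium channels shape firing and transmitter release, and Scn9a (Nav1.7) carries most of the sodium current. Polycomb marks at such genes are known from other stem cells, where genes of later cell types often carry H3K27me3, and promoters rich in CpG dinucleotides are the usual site of that mark.

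H3K27me3 peaks lay at nearly all channel genes. Counted over the gene and its flanks, H3K27ac peaks were about as common at them as at all genes. At gene starts and at stricter peak thresholds, given below, H3K27ac was less common at them than at all genes. A gene was counted as marked when a peak of each of the 2 libraries of a mark overlapped the gene body or the 5 kb on either side. By that rule 43 of 44 channel genes (97.7%) carried H3K27me3, against 46.2% of all protein-coding genes, and Scn2a was the exception, with peaks in replicate 1 alone. H3K27ac was present at 30 of 44 (68.2%), against 70.0% of all genes. Both marks were found at 29 channel genes (65.9%, against 35.7% of all genes), H3K27me3 without H3K27ac at 14 (31.8%, against 10.5%) and neither mark at 0 of 44, against 19.6% of all genes. Only Scn2a carried H3K27ac without H3K27me3. Peaks of both marks at one gene can come from the same chromatin or from different cells of the pool, and these cannot be told apart.

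Long genes collect more peaks, and the channel genes are long, with a median of 96.6 kb against 17.2 kb for all genes. Among genes of at least 200 kb, H3K27me3 was present at 9 of 9 channel genes and at 83.3% of all genes. Among genes of under 20 kb it was present at 8 of 8 channel genes and at 39.3% of all genes. For genes of 20 to 50 kb the counts were 8 of 8 against 45.2%, for 50 to 100 kb 7 of 7 against 53.9% and for 100 to 200 kb 11 of 12 against 67.1%. The share of channel genes was therefore above that of all genes in every length class, by the least in the longest class. For H3K27ac the channel genes lay below all genes in 3 classes, with 5 of 8 against 81.0% (20 to 50 kb), 4 of 7 against 86.0% (50 to 100 kb) and 7 of 12 against 89.2% (100 to 200 kb). In the shortest and the longest class they lay above them, with 6 of 8 against 58.4% and 8 of 9 against 83.2%.

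Because a window can include a neighbouring gene, the starts themselves were examined next. RefSeq lists starts for 32 of the channel genes, and 26 of them (81.2%) had H3K27me3 within 1 kb of a start in both libraries, against 24.8% of all genes with a listed start. H3K27ac was at the start of 15 (46.9%), against 61.4% of all genes. Both marks were at the start of 13 (40.6%, against 14.9%), H3K27me3 alone at 13 (40.6%, against 9.94%), H3K27ac alone at 2 (Cacnb1 and Scn2a), and neither at 4 (Cacna1f, Scn1a, Scn7a and Scn11a). For the other 12 genes either end of the gene stood in for the start, and with them 37 of 44 (84.1%) carried H3K27me3, against 26.7% of all genes under this rule, and 23 (52.3%) carried H3K27ac, against 61.5%. Cacna1a shows the limit of that stand-in, since its H3K27me3 peaks (fold 6.06 and 4.83) and its H3K27ac peaks (6.41 and 5.21) lay at opposite ends of the gene.

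Several channel genes have more than one listed start, and the starts of one gene could differ in CpG count and in marks. The promoters below run from 250 bases before to 50 bases after the start, are given 5′ to 3′ on the gene's own strand from RefSeq (GRCm38.p6), and have CpG dinucleotides in capitals. They pair the CpG-rich start of Cacna1d and of Cacna1c, encoding the L-type pores Cav1.3 and Cav1.2, with a CpG-poor start of the same gene. They also set Cacna2d1, whose start carried both marks, beside Cacna2d3, whose start carried H3K27me3 without H3K27ac, and Scn9a, with both marks, beside Scn7a, with no peak within 1 kb of its start.
Cacna1d, start with 63 CpG, chr14:30353437-30353736, minus strand: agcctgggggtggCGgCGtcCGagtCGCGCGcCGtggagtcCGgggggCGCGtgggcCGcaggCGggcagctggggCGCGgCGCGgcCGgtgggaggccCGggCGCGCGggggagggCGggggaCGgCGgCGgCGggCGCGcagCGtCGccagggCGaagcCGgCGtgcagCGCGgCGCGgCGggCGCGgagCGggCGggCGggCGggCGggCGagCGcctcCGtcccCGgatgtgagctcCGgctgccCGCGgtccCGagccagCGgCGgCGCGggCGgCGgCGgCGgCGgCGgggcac
Cacna1d, start with 4 CpG, chr14:30491107-30491406, minus strand: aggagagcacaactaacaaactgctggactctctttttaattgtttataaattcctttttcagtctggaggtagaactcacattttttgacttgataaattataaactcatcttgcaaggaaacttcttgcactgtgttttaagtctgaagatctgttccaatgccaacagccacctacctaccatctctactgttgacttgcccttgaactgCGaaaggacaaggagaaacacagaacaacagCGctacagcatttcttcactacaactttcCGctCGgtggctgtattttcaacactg
Cacna1c, start with 57 CpG, chr6:119108446-119108745, minus strand: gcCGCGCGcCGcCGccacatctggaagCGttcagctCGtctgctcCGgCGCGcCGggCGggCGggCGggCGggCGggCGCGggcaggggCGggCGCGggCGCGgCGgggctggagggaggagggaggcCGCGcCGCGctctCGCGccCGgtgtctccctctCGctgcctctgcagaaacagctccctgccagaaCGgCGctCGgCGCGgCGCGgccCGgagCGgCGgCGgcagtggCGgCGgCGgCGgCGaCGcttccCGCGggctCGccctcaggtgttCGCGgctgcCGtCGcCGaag
Cacna1c, start with 3 CpG, chr6:119196360-119196659, minus strand: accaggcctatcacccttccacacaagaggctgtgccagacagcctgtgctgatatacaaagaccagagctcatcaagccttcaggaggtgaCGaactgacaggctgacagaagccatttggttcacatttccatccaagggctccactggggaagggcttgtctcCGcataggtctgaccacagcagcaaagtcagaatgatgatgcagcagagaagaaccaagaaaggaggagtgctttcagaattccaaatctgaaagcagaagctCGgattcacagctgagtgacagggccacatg
Cacna2d1, 42 CpG, chr5:15934441-15934740, plus strand: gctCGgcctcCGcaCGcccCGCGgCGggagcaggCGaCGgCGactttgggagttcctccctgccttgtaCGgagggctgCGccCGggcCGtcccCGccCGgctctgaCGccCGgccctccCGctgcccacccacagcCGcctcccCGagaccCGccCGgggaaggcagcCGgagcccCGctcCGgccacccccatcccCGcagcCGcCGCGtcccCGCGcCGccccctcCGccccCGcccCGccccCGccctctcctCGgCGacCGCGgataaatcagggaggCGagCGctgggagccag
Cacna2d3, 41 CpG, chr14:29721815-29722114, minus strand: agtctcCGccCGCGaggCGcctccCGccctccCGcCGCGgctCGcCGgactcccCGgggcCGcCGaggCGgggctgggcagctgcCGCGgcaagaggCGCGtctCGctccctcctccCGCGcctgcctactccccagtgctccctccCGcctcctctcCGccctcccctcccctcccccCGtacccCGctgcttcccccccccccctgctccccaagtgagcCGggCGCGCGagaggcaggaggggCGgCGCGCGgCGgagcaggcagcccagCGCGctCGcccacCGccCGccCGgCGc
Scn9a, 9 CpG, chr2:66634913-66635212, minus strand: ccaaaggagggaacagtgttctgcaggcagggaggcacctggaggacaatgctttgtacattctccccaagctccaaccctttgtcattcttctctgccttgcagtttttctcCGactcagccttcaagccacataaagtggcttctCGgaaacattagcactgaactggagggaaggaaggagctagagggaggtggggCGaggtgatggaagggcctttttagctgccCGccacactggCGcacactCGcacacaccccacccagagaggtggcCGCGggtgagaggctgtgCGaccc
Scn7a, 3 CpG, chr2:66784861-66785160, minus strand: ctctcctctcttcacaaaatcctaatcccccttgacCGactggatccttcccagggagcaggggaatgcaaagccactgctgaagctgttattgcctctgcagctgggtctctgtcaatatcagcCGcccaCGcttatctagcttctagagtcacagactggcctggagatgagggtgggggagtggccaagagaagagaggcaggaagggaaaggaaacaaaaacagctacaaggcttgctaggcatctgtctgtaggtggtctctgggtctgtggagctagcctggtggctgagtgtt

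The Cacna1d start with 63 CpG lay under peaks of all 4 libraries, at H3K27me3 folds of 4.29 and 4.02 and H3K27ac folds of 6.27 and 4.21. No library had a peak within 1 kb of the start with 4 CpG. At Cacna1c the start with 57 CpG had H3K27me3 folds of 6.40 and 5.10 and H3K27ac folds of 4.43 and 3.75, and the start with 3 CpG had no peak within 1 kb. In both genes all 4 libraries thus marked the CpG-rich start and none marked the CpG-poor one shown, while another Cacna1c start with 7 CpG had a peak of H3K27me3 replicate 2 alone (fold 2.81). Cacnb2 (35 against 4 CpG), whose beta subunit carries calcium channels to the membrane, showed the same split, with all 4 libraries at the first start and none at the second. At Scn8a, which encodes Nav1.6, the start with 38 CpG had all 4 libraries, while the start with 12 CpG had a peak of H3K27me3 replicate 1 alone (fold 3.72). At Scn2a, encoding Nav1.2, the start with 9 CpG had H3K27ac in both libraries (4.57 and 3.13) and the start with 3 CpG had no peak. Cacnb4 and Cacnb1 also had a CpG-poor start with no mark in both libraries. The split did not hold at Cacng5 and Cacnb3. At Cacng5 the start with 17 CpG had H3K27me3 folds of 5.93 and 3.97 and the start with 5 CpG had 3.58 and 3.97, with no H3K27ac at either. At Cacnb3 the starts with 29 and 7 CpG lay within 1 kb of the same peaks in all 4 libraries.

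Starts with like CpG counts could differ in their marks. Cacna2d1 and Cacna2d3 encode paralogous alpha2delta subunits and have promoters of nearly equal CpG count, yet Cacna2d1 had H3K27me3 folds of 7.38 and 3.77 with H3K27ac folds of 17.9 and 9.68, whereas Cacna2d3 had H3K27me3 folds of 9.65 and 6.28 and no H3K27ac peak within 1 kb of its start in either library. Scn9a had 9 CpG and a CpG ratio (observed over expected) of 0.366, which is low for a promoter with both marks, and its H3K27ac folds of 13.1 and 6.11 stood above its H3K27me3 folds of 3.76 and 3.04. Folds of different marks come from different antibodies and are given side by side, not compared as amounts.

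Over all 43 listed promoters of the 32 genes, 19 (44.2%) had a CpG ratio of at least 0.6, against 47.7% of the promoters of all genes. Of these 19, H3K27me3 lay within 1 kb of 18 (94.7%, against 24.6% of all promoters of that kind), H3K27ac of 13 (68.4%, against 91.7%) and both of 12 (63.2%, against 18.5%). Of the 24 promoters with a lower ratio, 11 had H3K27me3 (45.8%, against 23.9%), 4 had H3K27ac (16.7%, against 34.0%) and 3 had both (12.5%, against 10.1%). CpG-rich channel promoters thus had a higher share with H3K27me3 and a lower share with H3K27ac than CpG-rich promoters at large. The median CpG ratio was 0.886 at the 15 promoters with both marks, 0.474 at the 14 with H3K27me3 alone, 0.686 at the 2 with H3K27ac alone and 0.290 at the 12 with neither mark in both libraries. Promoters of one gene that lie close together share peaks, so they are not independent. The neuronal repressor REST binds a longer element that holds the letters TTCAGCACC and GGACAG. On either strand, TTCAGCACC was in 0 of 43 channel promoters, against 0.414% of all promoters, and GGACAG in 7 (16.3%), against 22.3%.

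**Figure D1:**
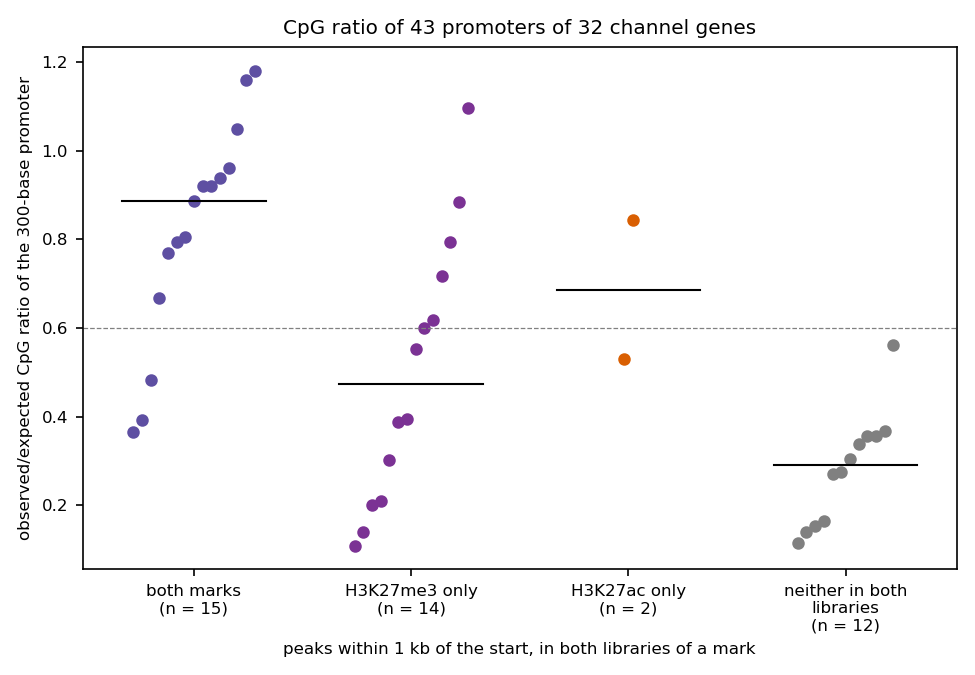
Observed over expected CpG ratio of the 43 listed promoters (300 bases each) of 32 channel genes, by the marks with peaks within 1 kb of the start in both libraries. Points are promoters, black lines are medians (0.886, 0.474, 0.686 and 0.290 from left to right) and the dashed line is the ratio of 0.6 used to split promoters. Promoters with neither mark all lie under the line.

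H3K27me3 also spread over the bodies of many channel genes. Peaks covered a median of 26.3% and 19.1% of the channel gene windows in replicates 1 and 2, against 1.67% and 0% for all genes. At least 25% of the window was covered in both libraries at 19 of 44 (43.2%), against 8.33% of all genes, a threshold set after the values were seen. Such cover was less common in long genes generally (11.0%, 6.32%, 4.49%, 3.96% and 2.32% of all genes from the shortest to the longest of the 5 length classes), while the channel genes had it at 6 of 8, 4 of 8, 2 of 7, 6 of 12 and 1 of 9. H3K27ac passed the same threshold at 1 of 44, against 12.4% of all genes, and its peaks covered a median of 2.53% and 0.937% of the channel gene windows, against 5.20% and 4.21% for all genes.

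**Figure D2:**
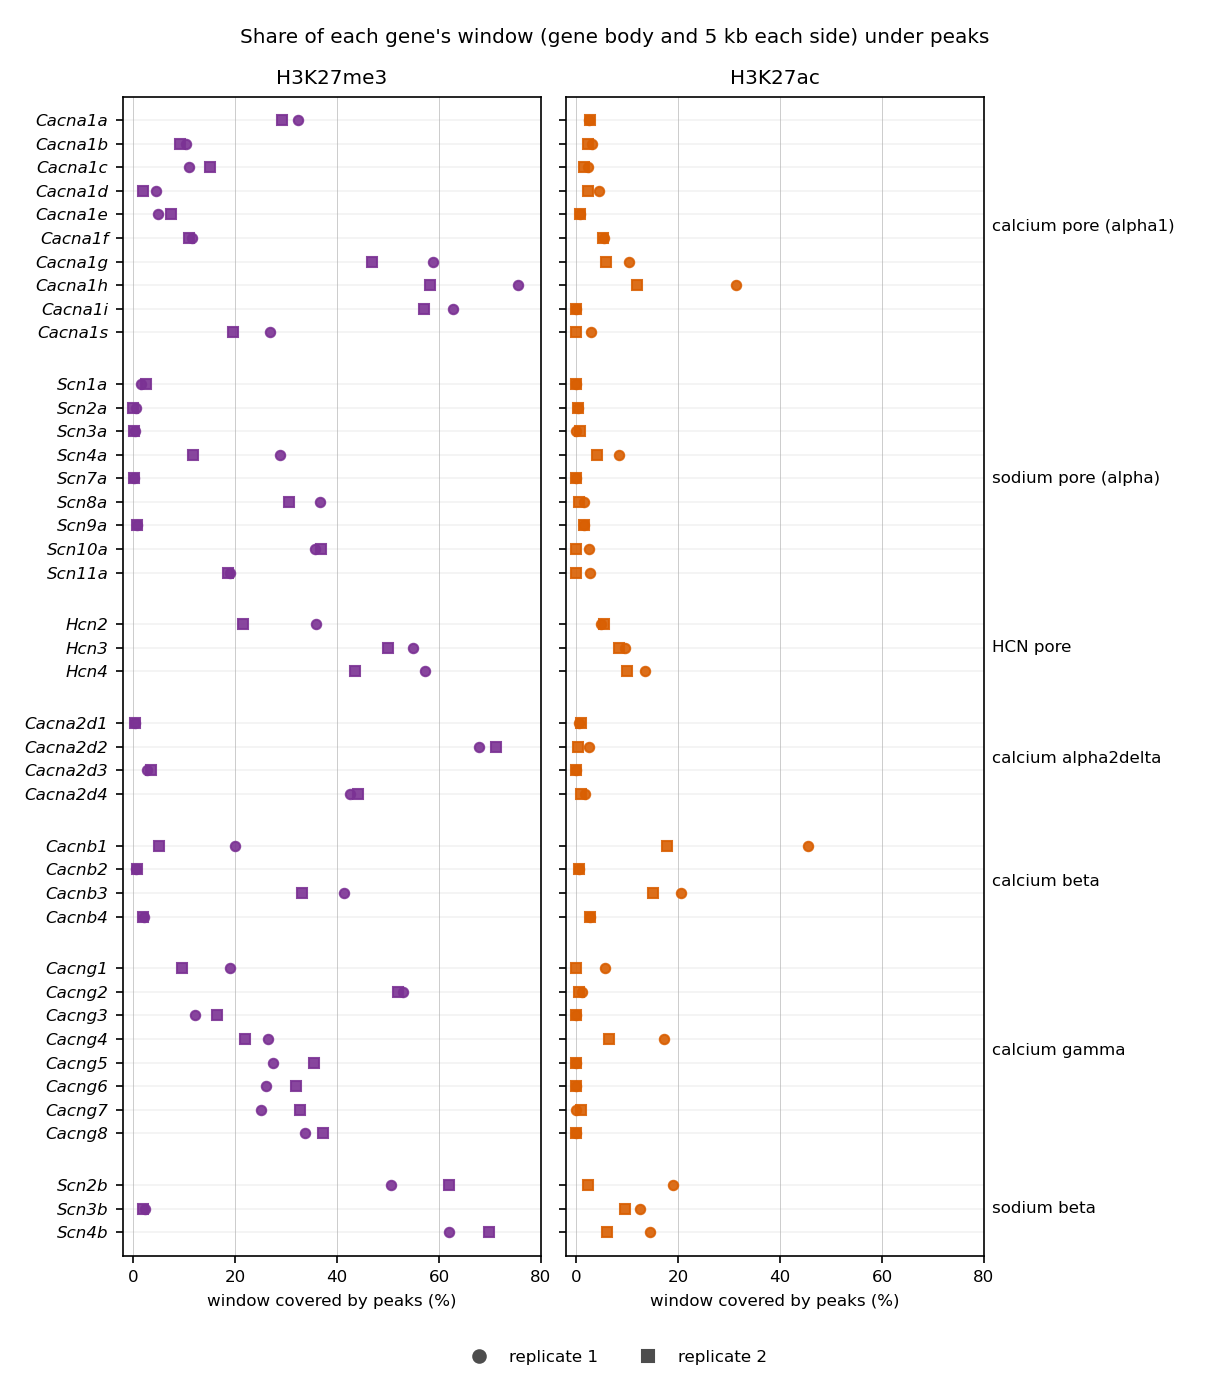
Percent of each channel gene's window (gene body and 5 kb on each side) under peaks, for H3K27me3 on the left and H3K27ac on the right. Each row is one of the channel genes reported singly, circles are replicate 1 and squares replicate 2, and genes are grouped by the role of their subunit. H3K27me3 reached 75.6% at Cacna1h and 71.1% at Cacna2d2, while most H3K27ac values lie near 0.

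The broadest H3K27me3 cover lay on T-type calcium channels, an alpha2delta subunit and sodium beta subunits. Cacna1h, encoding Cav3.2, had 75.6% and 58.3% of its window covered, Cacna1i (Cav3.3) 62.8% and 57.0%, and Cacna1g (Cav3.1) 58.9% and 46.9%. All 3 genes for T-type channels, which open at low voltage, were therefore covered over much of their length in both libraries. Cacna2d2 had 67.9% and 71.1% covered, Scn4b 61.9% and 69.8%, and Scn2b 50.7% and 62.0%. Hcn4, encoding the main pacemaker channel of the heart, had 57.2% and 43.6%, and Hcn3 54.9% and 49.9%. Cacng2 (stargazin, an AMPA receptor partner) had 52.9% and 52.0%. Each of these genes lay above 40% in both replicates.

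At 16 of the 19 broadly covered genes the window was covered more than the 50 kb on each side of it, in both libraries, and medians outside were 19.1% and 16.0%. The exceptions were Scn10a, Scn8a and Cacna1h, and at Cacna1h the outside cover was 69.1% and 73.9%, so its H3K27me3 is part of a wider marked stretch. The 19 genes were chosen by the cover of this same window, which favours a window above its surroundings. The count of 16 therefore cannot show that the mark is confined to the genes. At the other extreme, 10 genes had less than 3% of the window covered in both libraries (among them Cacna2d1, Cacnb2, Cacnb4, Scn1a, Scn2a, Scn3a, Scn3b, Scn7a and Scn9a). Their median length was 162.5 kb, against 40.5 kb for the 19 broadly covered genes, and each had between 0 and 7 H3K27me3 peaks in a library. H3K27ac was present in both libraries at 7 of these 10 and at 13 of the 19, both near the 70.0% of all genes. Among all genes of 100 to 200 kb that share was 89.2%, and among those of 20 to 50 kb it was 81.0%.

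**Figure D3:**
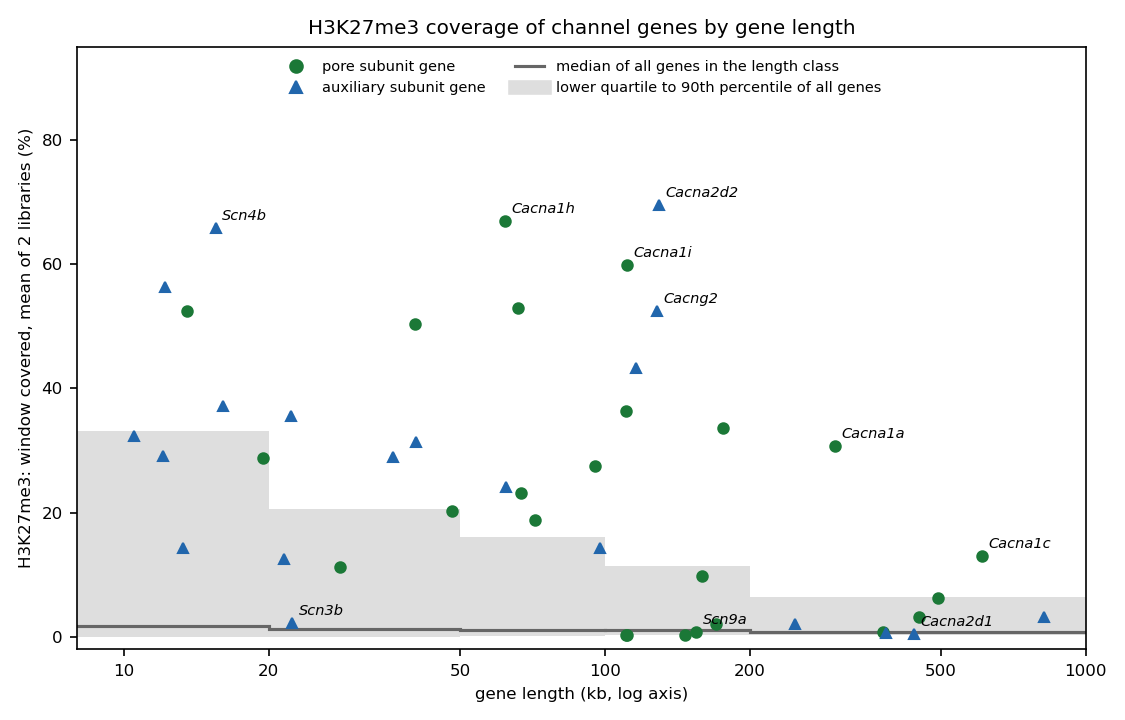
Percent of the window under H3K27me3 peaks, mean of the 2 libraries, against gene length on a log axis. Circles are pore and triangles auxiliary subunit genes, the line is the median of all protein-coding genes of the length class and the shaded band runs from their lower quartile to their 90th percentile. Many channel genes between 10 and 200 kb lie above the band, while Scn9a, Scn3b and Cacna2d1 lie near the median of all genes.

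Pore and auxiliary genes differed little in the window count of H3K27me3, with 23 of 24 and 20 of 20, against 46.2% of all genes. H3K27ac was present at 17 of 24 pore genes (70.8%) and 13 of 20 auxiliary genes (65%), near the 70.0% of all genes. Both marks were at 16 and 13, against 35.7% of all genes. Within the auxiliary class, H3K27ac was at 2 of 8 gamma genes, 3 of 4 alpha2delta genes and 4 of 4 beta genes. At listed starts, 12 of 17 pore genes (70.6%) and 14 of 15 auxiliary genes (93.3%) had H3K27me3, against 24.8% of all genes. H3K27ac was at the starts of 9 of 17 (52.9%) and 6 of 15 (40%), against 61.4%. Broad cover was found at 8 of 24 pore genes and 11 of 20 auxiliary genes, against 8.33% of all genes. The median cover by H3K27me3 was 22.8% and 16.0% for pore genes and 26.3% and 29.8% for auxiliary genes, so the order of the classes was the same in both libraries but the gap was wider in replicate 2. Pore genes had a median length of 111.0 kb and auxiliary genes one of 38.3 kb, and paralogous genes that lie next to each other share peaks.

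**Figure D4:**
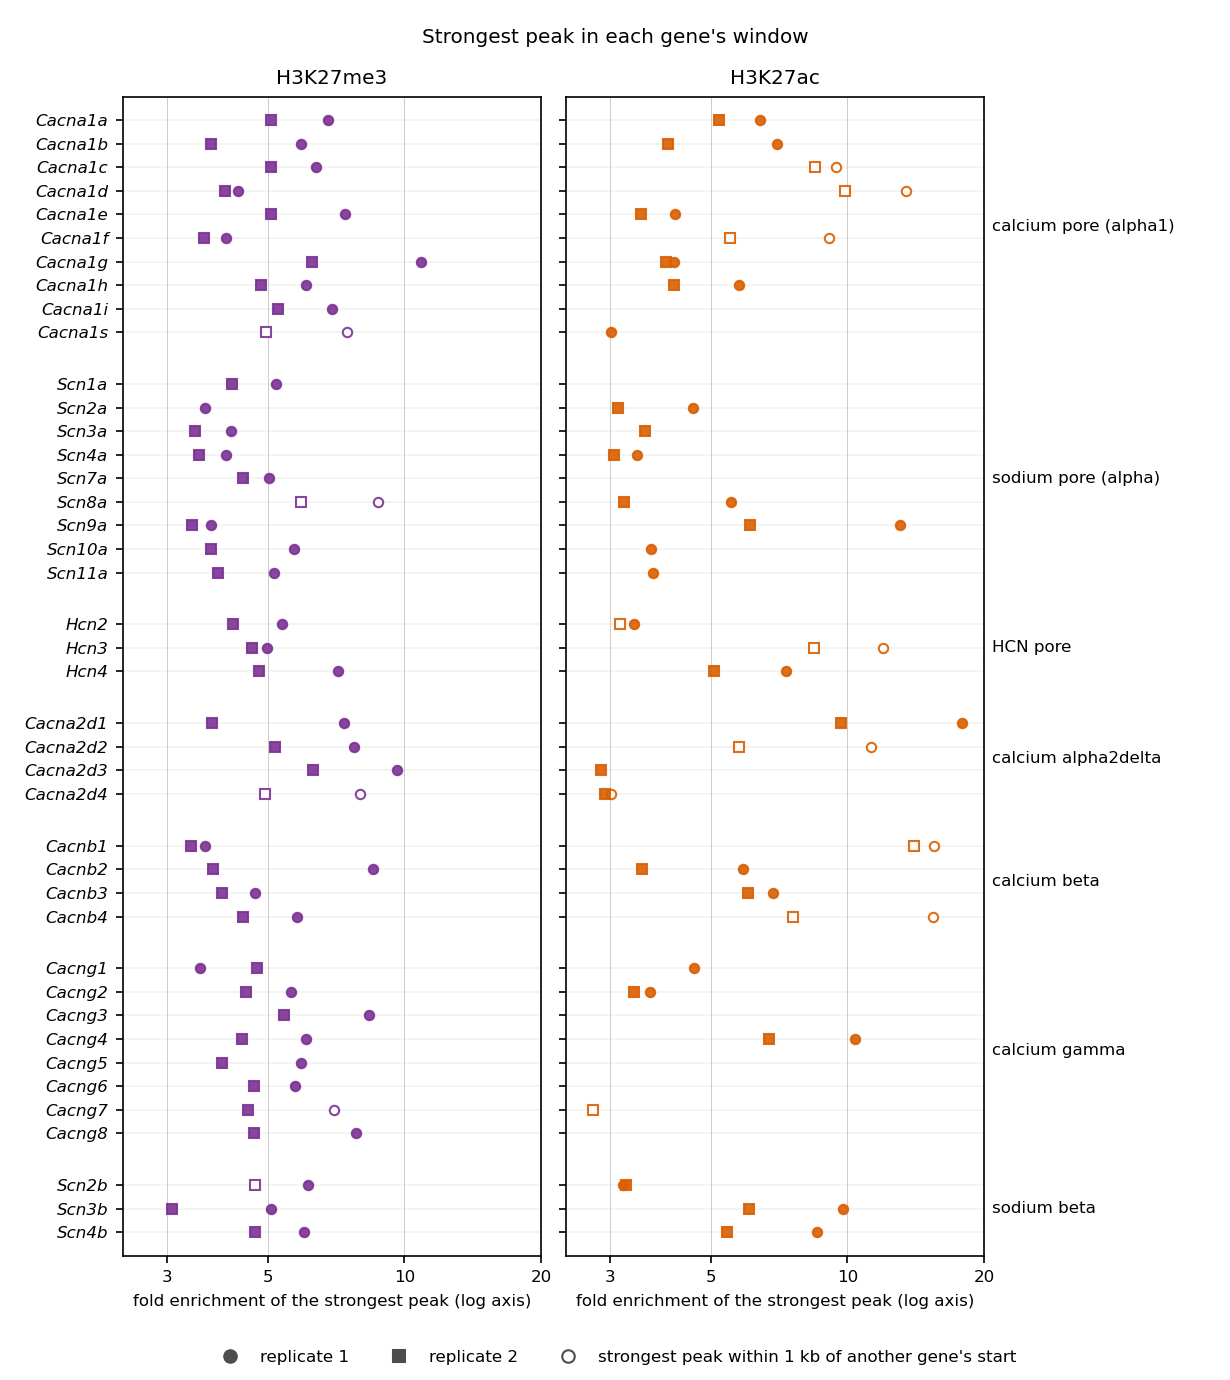
Fold enrichment of the strongest peak in the window of each channel gene reported singly (log axis), for H3K27me3 on the left and H3K27ac on the right. Circles are replicate 1 and squares replicate 2, hollow symbols mark a strongest peak within 1 kb of another gene's start (or of either end of a gene without a listed start), and a row without a symbol had no peak. Cacna2d1 reached the highest value shown, 17.9 for H3K27ac in replicate 1.

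The peak strength used here is the authors' fold enrichment over background, taken for the strongest peak in each window. Replicate 1 had the higher H3K27me3 fold at 42 of the 43 marked genes, all but Cacng1, and the higher H3K27ac fold at 28 of 30. Folds are therefore given by library and ranked only within a library. H3K27me3 folds at marked channel genes ran between 3.55 and 10.9 in replicate 1 and between 3.08 and 6.28 in replicate 2. H3K27ac folds ran between 3.02 and 17.9 in replicate 1 and between 2.92 and 14.1 in replicate 2. Few channel genes had H3K27me3 peaks among the most certain in both libraries. A −log10 q of at least 5 in both libraries was reached for H3K27me3 at 3 of 44 channel genes (Cacna1g, Cacna2d3 and Scn8a). That share is near the 5.75% of all genes, so the excess of H3K27me3 was not seen when both libraries had to pass this threshold. Fewer peaks pass it in replicate 2, with 2.34% of all H3K27me3 peaks against 5.89% in replicate 1. Some channel genes passed in replicate 1 alone, such as Cacng3 (10.8 and 4.93 at the strongest peaks) and Cacna2d2 (10.0 and 4.76). H3K27ac reached a −log10 q of at least 5 in both libraries at 17 of 44, a lower share than the 52.6% of all genes. At a −log10 q of at least 2 the counts were 38 of 44 for H3K27me3, against 26.1% of all genes, and 23 of 44 for H3K27ac, against 64.9%. The strongest H3K27me3 peak lay within 1 kb of another gene's start in both libraries at 3 of 43 genes (Cacna1s, Cacna2d4 and Scn8a). For H3K27ac this was so at 8 of 30 (among them Cacna1c, Cacna1d, Cacna1f, Cacna2d2, Cacnb1, Cacnb4 and Hcn3). The windows of 21 of the 44 channel genes held another protein-coding gene. The same counts were not made for all genes, so the difference between the marks cannot be called particular to channel genes.

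The calcium alpha1 genes all carried H3K27me3, and 8 of 10 carried H3K27ac, against 46.2% and 70.0% of all genes. Their median length was 135.2 kb, and among all genes of 100 to 200 kb the shares were 67.1% and 89.2%. Cacna1g had the best mean rank of H3K27me3 fold of any channel gene, with 10.9 and 6.27 at its upper end, among the top 0.464% and 1.09% of peaks of their libraries. H3K27ac in its window was weaker, with folds of 4.14 and 3.99. Cacna1e, the R-type channel, had H3K27me3 folds of 7.41 and 5.09 and H3K27ac folds of 4.16 and 3.52. Its H3K27ac peaks lay over the start in both libraries, but the strongest H3K27me3 peak did so in replicate 1 alone and lay 155.2 kb away in replicate 2. Cacna1i had H3K27me3 folds of 6.93 and 5.26 and no H3K27ac peak in either library. Cacna1s, the skeletal muscle channel, had H3K27me3 folds of 7.46 and 4.96 from a peak that also lay at the start of Ascl5, and an H3K27ac peak in replicate 1 alone (3.02).

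The L-type genes of neurons and heart had strong H3K27ac in the window, but its strongest peak lay at a neighbour's start. At Cacna1d the H3K27ac folds of 13.5 and 9.87 came from a peak at the start of Dcp1a, and its own start had 6.27 and 4.21. At Cacna1c the folds of 9.43 and 8.48 came from the start of Dcp1b, and its own start had 4.43 and 3.75. Both starts thus kept H3K27ac of their own in both libraries, along with H3K27me3. Cacna1f, the retinal L-type channel, had H3K27me3 folds of 4.05 and 3.63 away from its start, and its H3K27ac folds of 9.13 and 5.52 came from the start of Ccdc22. It was the one gene that lost its H3K27ac call when peaks at starts of other genes were left out, an alternative chosen after seeing the data.

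Hcn2, Hcn3 and Hcn4, which encode HCN channels, each carried both marks. Hcn4 had H3K27me3 folds of 7.15 and 4.78 and H3K27ac folds of 7.31 and 5.09, all at its start. Hcn2 had H3K27me3 folds of 5.37 and 4.18 and H3K27ac folds of 3.39 and 3.15. The H3K27ac value of replicate 2 came from the start of Bsg, 4.68 kb away, and the Hcn2 start had 3.03 in that library. Hcn3 had H3K27me3 folds of 4.98 and 4.61, while its H3K27ac folds of 12.0 and 8.44 came from the start of Clk2 next to it. Hcn4 therefore had its strongest peaks of both marks at its start in every library. The strongest H3K27ac peak lay at a neighbour's start for Hcn3 in both libraries and for Hcn2 in replicate 2.

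The alpha2delta genes ranged between strong H3K27ac and none at the start. Cacna2d1, a subunit bound by gabapentin, had the highest H3K27ac fold of any channel gene in replicate 1, at 17.9, and 9.68 in replicate 2. Cacna2d3 had the second-best mean rank of H3K27me3 fold (9.65 and 6.28) and a single H3K27ac peak 236.6 kb from its start, in replicate 2 (2.87). Cacna2d2 had H3K27me3 folds of 7.74 and 5.19 at its start, and its H3K27ac folds of 11.3 and 5.79 came from the start of Tmem115. Cacna2d4, found in photoreceptors, had H3K27me3 folds of 7.98 and 4.92 at the start of Lrtm2, which lies inside its window, and H3K27ac folds of 3.02 and 2.92. The 4 genes all had H3K27me3 in both libraries, against 46.2% of all genes, and Cacna2d1 was the one with H3K27ac at its own start.

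All 4 calcium beta genes, which encode the cytoplasmic subunits, carried both marks, against 35.7% of all genes. Cacnb1, the beta subunit of skeletal muscle, had H3K27ac folds of 15.5 and 14.1 from the start of the ribosomal protein gene Rpl19, and 8.34 and 6.31 at its own start. Its H3K27me3 was weak, with folds of 3.63 and 3.39 away from the start. Cacnb4 had H3K27ac folds of 15.5 and 7.60 from the start of Arl5a, with 6.87 and 3.49 at its own start beside H3K27me3 folds of 5.81 and 4.40. Cacnb3 had H3K27me3 folds of 4.68 and 3.96 and H3K27ac folds of 6.85 and 6.03, all within 1 kb of its starts. Cacnb1 was therefore the beta gene with H3K27ac and without replicated H3K27me3 at a start.

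The gamma genes stood at the other end, with H3K27me3 at 8 of 8, against 46.2% of all genes. H3K27ac was at 2 of 8 (Cacng2 and Cacng4), against 70.0%. Cacng3, an AMPA receptor partner in neurons, had H3K27me3 folds of 8.38 and 5.43 and no H3K27ac peak. Cacng5 (5.93 and 3.97), Cacng6 (5.76 and 4.67) and Cacng8 (7.81 and 4.67) also had H3K27me3 in both libraries and no H3K27ac peak in either. Cacng7 had H3K27me3 folds of 7.01 and 4.53 and an H3K27ac peak in replicate 2 alone (2.75), and Cacng1, the muscle gamma subunit, had 3.55 and 4.73 with an H3K27ac peak in replicate 1 alone (4.59). Cacng2 had H3K27me3 folds of 5.62 and 4.48 and weak H3K27ac (3.67 and 3.39). Cacng4 departed from the rest, with H3K27ac folds of 10.4 and 6.71 beside H3K27me3 folds of 6.09 and 4.39.

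Among the sodium alpha genes, 9 of 10 carried H3K27me3, against 46.2% of all genes. H3K27ac was at 5 of 10 (among them Scn4a, Scn8a and Scn9a), against 70.0%. Scn8a had H3K27me3 folds of 8.75 and 5.93 from a peak at the start of Fignl2, with 7.34 and 5.06 at its own starts, and H3K27ac folds of 5.55 and 3.22. Scn4a, the skeletal muscle channel, had weak peaks of both marks, at H3K27me3 folds of 4.05 and 3.54 and H3K27ac folds of 3.44 and 3.07. The sodium beta genes Scn2b, Scn3b and Scn4b carried both marks. Of these, Scn3b had the sparsest H3K27me3, at 2.41% and 1.96% of its window, with H3K27ac folds of 9.79 and 6.08.

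Neighbouring paralogs were compared in 3 clusters, which differed widely. The sodium cluster of chromosome 2 (Scn3a, Scn2a, Scn1a, Scn9a and Scn7a, with Csrnp3, Galnt3 and Ttc21b between them) spans 1338 kb, of which H3K27me3 covered 0.640% and 0.649% and H3K27ac 0.673% and 0.624%. The Cacng cluster of chromosome 11 (Cacng1, Cacng4 and Cacng5, 221.8 kb) had 22.3% and 21.6% under H3K27me3 and 6.21% and 2.16% under H3K27ac. The Cacng cluster of chromosome 7 (Cacng7, Cacng8 and Cacng6, 113.6 kb) had 23.8% and 29.1% under H3K27me3 and 0% and 0.355% under H3K27ac. Both Cacng clusters thus had far more H3K27me3 cover than the sodium cluster in each library.

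**Figure D5:**
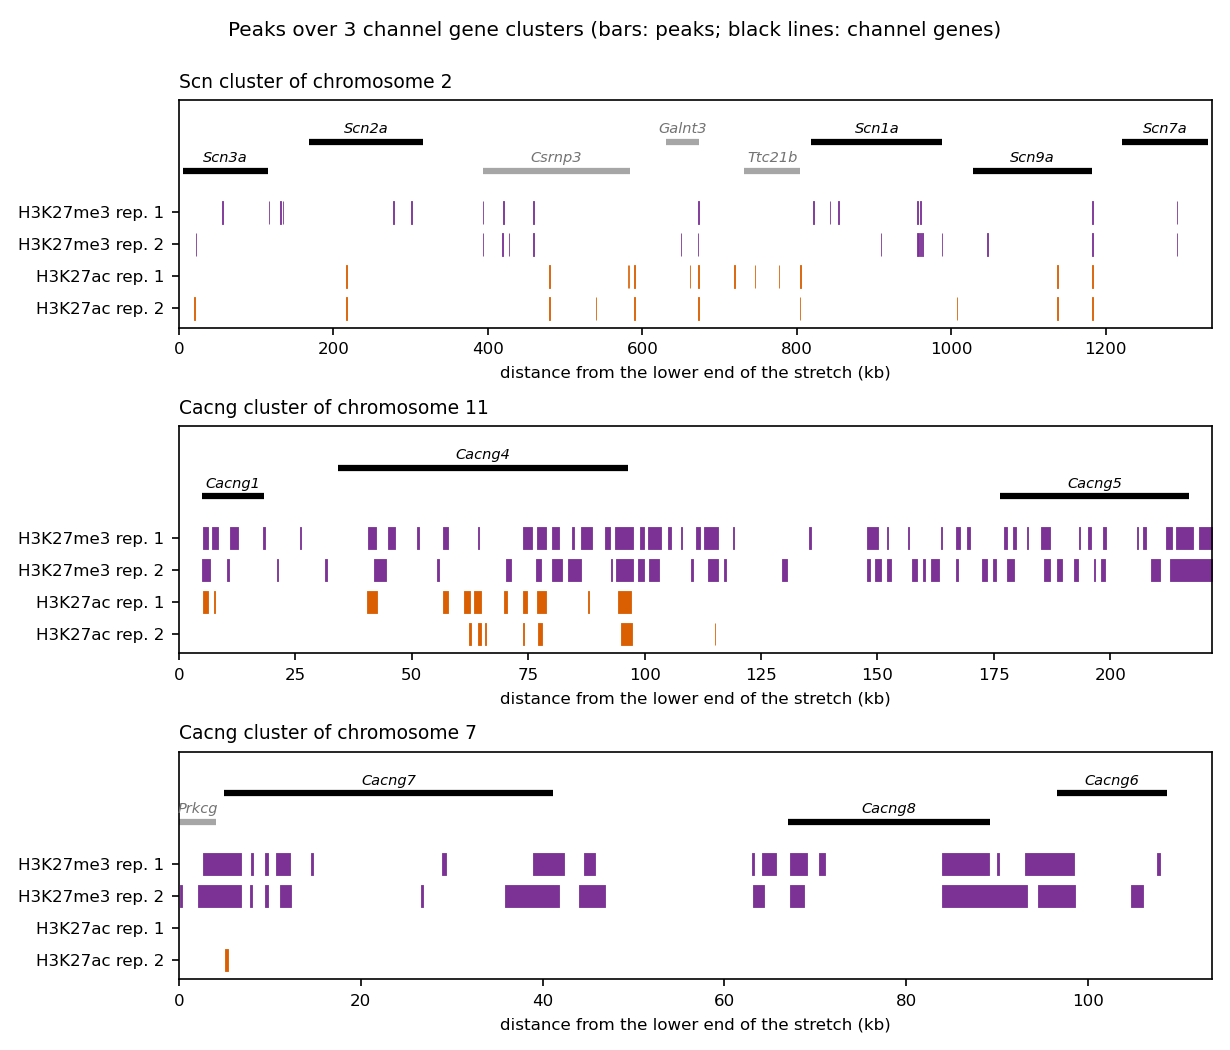
Peaks of the 4 libraries over the 3 clusters, each drawn from its lower end in kb. Black lines are channel genes, grey lines other protein-coding genes, purple bars H3K27me3 peaks and orange bars H3K27ac peaks. The chromosome 2 sodium cluster is nearly bare, while H3K27me3 peaks are dense over both Cacng clusters.

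Among the channel genes of the chromosome 2 cluster, Scn9a had the strongest H3K27ac, at its start (13.1 and 6.11) and at another site inside the gene (10.8 and 5.57), and Scn2a had weaker H3K27ac (4.57 and 3.13). Other genes of the cluster had H3K27ac too, with folds of 13.1 and 9.05 at the upper end of Galnt3 and of 9.19 and 5.66 at that of Ttc21b. Scn1a, encoding Nav1.1, had H3K27me3 folds of 5.21 and 4.16 at peaks 31.3 and 30.7 kb from its start, a weaker H3K27me3 peak at the start in replicate 2 alone (2.84) and no H3K27ac peak. Scn7a, a sodium-level sensor, had 1 H3K27me3 peak in each library (5.02 and 4.41), 40.4 kb from its start, and no H3K27ac peak. Scn3a, the Nav1.3 gene of developing neurons, had H3K27me3 folds of 4.15 and 3.45 from peaks at different places and an H3K27ac peak in replicate 2 alone (3.58). None of Scn1a, Scn3a and Scn7a had H3K27me3 at a start in both libraries, so their window counts rest on peaks elsewhere in the window.

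On chromosome 9, Scn10a (Nav1.8, a pain-fibre channel) had H3K27me3 folds of 5.71 and 3.75 and Scn11a (Nav1.9) had 5.17 and 3.89. These strongest peaks lay at different places in the 2 libraries. They were 76.5 and 38.9 kb from the start of Scn10a and 20.3 and 46.2 kb from that of Scn11a. The Scn10a start itself had H3K27me3 folds of 4.57 and 3.33. Both genes had H3K27ac in replicate 1 alone, with 3.69 at Scn10a and 3.74 at Scn11a. Pairs of neighbours also share peaks, since 1 H3K27me3 peak of replicate 2 was the strongest for both Cacng8 and Cacng6, and another for both Scn2b and Scn4b.

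Genes that work with these channels were examined by the same rule. Of 25 partner genes, 23 (92%) carried H3K27me3, against 46.2% of all genes, 21 (84%) carried H3K27ac, against 70.0%, and 20 carried both, against 35.7%. The partner genes are long, with a median of 129.2 kb against 17.2 kb for all genes, and length was not matched in these counts. Stac2, an adaptor of L-type channels, had H3K27me3 folds of 7.19 and 5.06 over 59.6% and 54.5% of its window. Its H3K27ac folds were 3.61 and 3.39. Rims2, which tethers calcium channels at release sites, had H3K27me3 folds of 6.90 and 3.98 and H3K27ac folds of 18.8 and 7.95. Cabp5, a calcium-binding modulator, had no peak in any library. Of 25 related channel genes, 23 were matched by symbol, and 18 (78.3%) carried H3K27me3 and 18 (78.3%) H3K27ac, the second share near the 70.0% of all genes, with broad H3K27me3 at 3. Among them Asic4, of the acid-sensing channel family, had the broadest H3K27me3, at 79.8% and 71.1% of its window. Potassium channel genes (94 with Kcn symbols), which also serve excitability, had H3K27me3 at 88 (93.6%), H3K27ac at 71 (75.5%) and broad H3K27me3 at 32 (34%, against 8.33% of all genes).

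Marker genes were examined as a check of the cell label, although most genes of any kind carried H3K27ac by this rule (70.0%, with 46.2% for H3K27me3). H3K27me3 was present at 7 of 8 markers of globose basal cells and neuronal progenitors, at 3 of 5 of immature neurons, 4 of 6 of mature olfactory neurons, 4 of 4 of horizontal basal cells, 2 of 4 of sustentacular cells, 1 of 5 of mast cells and melanocytes, 1 of 3 of leukocytes and 3 of 3 of muscle. H3K27ac was present at 8 of 8, 5 of 5, 6 of 6, 3 of 4, 4 of 4, 3 of 5, 2 of 3 and 2 of 3 of the same lists. These lists are short, several shares are near that of all genes, and the counts do not tell the cell types apart. Kit, the gene of the selected receptor, had H3K27me3 folds of 6.86 and 6.89 and H3K27ac folds of 6.80 and 5.46. Omp, which defines mature neurons, had no H3K27me3 peak and H3K27ac folds of 6.18 and 4.18. The mast cell and melanocyte markers were mixed. Hdc, the histamine-forming enzyme of mast cells, had H3K27ac folds of 6.11 and 5.08 over 37.5% and 25.9% of its window. Pmel, a melanosome protein, had H3K27ac folds of 13.8 and 12.1, and Mitf, a regulator of both cell types, had 6.61 and 4.02. Cpa3, a mast cell protease, had no peak in any library, and Tyr, the pigment enzyme, had no H3K27ac peak. Peaks at starts of neighbouring genes were not looked for at the marker genes, so a peak counted there can belong to a neighbour. Peak lists give no level of each cell type, and the part of other cells in the marks at channel genes was not tested.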

How the data were processed

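The data are 4 peak lists, from 2 H3K27me3 and 2 H3K27ac libraries, and no list of the 3 input libraries was used here. The submitters' processing notes name fastp, Bowtie, Picard, MACS2 and the build GRCm38 (mm10), with no versions. The authors called broad peaks for each library separately, and deposited for each peak a fold enrichment (a linear ratio over background), a −log10 p, a −log10 q and a score that follows the −log10 q. The smallest −log10 q was just above 1, a q of 0.1. The files hold no read totals, so depth is unknown, and the absence of a peak holds for that threshold and depth.

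Groups and replicate numbers come from the sample titles. One input served both H3K27me3 replicate 1 and H3K27ac replicate 2. Peaks were joined to RefSeq genes (GRCm38.p6 table, which holds no strand) with Python 3.11.15, numpy 2.4.6 and pandas 2.3.3, and the interval code was tested on simulated data. A gene was marked when each of the 2 libraries of a mark had a peak overlapping the gene body and 5 kb on each side by at least 1 bp. A start was within 1 kb of a RefSeq start, or of either gene end for 12 channel genes without one. With 2 libraries a mark no test was run. Replicates shared 61.3% and 64.8% of the H3K27me3 bases in channel gene windows (as shares of replicates 1 and 2), and 41.5% and 71.3% of the H3K27ac bases. Values of all 4 libraries were given for the 8 best genes per mark by mean rank of fold, for those with H3K27me3 without H3K27ac and for the clusters. Some channel genes are included in the counts but not reported singly here. Other named genes were chosen after their values were seen. The members, lists and rules were chosen with earlier results of these data known.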

Additional observations from a re-analysis of the deposited data

How the results depend on the processing

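The counts of marked channel genes were recomputed under other windows, overlaps and thresholds, and 72 of 92 values stayed within 1.5 times the reported count. That tally is a weak measure of stability, since the H3K27me3 count of 43 of 44 could not rise by such a factor. With a −log10 q of at least 5 in both libraries, H3K27me3 remained at 3 of 44 genes (Cacna1g, Cacna2d3 and Scn8a, 2 pore and 1 auxiliary). That is near the 5.75% of all genes, and fewer H3K27me3 peaks passed in replicate 2 (2.34%) than in replicate 1 (5.89%). H3K27ac remained at 17 of 44 (9 pore and 8 auxiliary), below the 52.6% of all genes, with both marks at 0 and neither at 24. With a −log10 q of at least 2, H3K27me3 was at 38 of 44 genes, against 26.1% of all genes, and neither mark at 3. Neither mark was found at 5 genes by starts (4 of the 32 with a listed start, against 28.6% of all such genes). It was found at 2 with 500 bp covered in each library and at 1 by bases shared between libraries. With 500 bp covered, 41 genes had H3K27me3 (against 38.4% of all genes) and 29 had H3K27ac (66.4%). By shared bases these were 42 (39.1%) and 30 (68.8%). Apart from the rule by starts, shares of all genes with both marks or neither were not counted under these other rules. A rule of 25% of the window covered, chosen after seeing the data, gave H3K27me3 at 19 (8 pore and 11 auxiliary), against 8.33% of all genes. It gave H3K27ac at 1 (0 pore and 1 auxiliary), against 12.4% of all genes, both at 1 and neither at 25. Leaving out peaks at starts of other genes, also chosen after seeing the data, left H3K27me3 at 43, H3K27ac at 29 and both at 28. That rule was applied to the channel genes alone, so no share of all genes stands beside it. Leaving out 1 library at a time gave 43 to 44 genes for H3K27me3 (pore 23 to 24, auxiliary 20 to 20), 33 to 34 for H3K27ac (pore 18 to 20, auxiliary 14 to 15), 29 to 33 for both and 0 to 0 for neither. Asking for a peak in 1 library of a mark is a looser rule, so counts of marked genes could only stay or rise. The count with neither mark, already at 0, could not change. No paired analysis was possible because the results come from no test, and replicate numbers do not link libraries of the 2 marks. Depth is unknown, so absence of a peak is absence at the authors' threshold.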
